A study of Mus musculus with 49 samples.

Results

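The genes described here mark the activation state of macrophages in mice with K/BxN serum-transfer arthritis. They were taken by gene symbol and number 8 of the 8251 genes on the array, namely Arg1, Chil3, Mrc1, Nos2, Acod1, Msr1, Marco and Cd14. Together they were measured by 10 probe sets. Acod1 and Msr1 have a second probe set each, and every gene is led by the probe set with the highest mean over all arrays.

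Whole ankle, cells of the synovial fluid and leukocytes of peripheral blood were profiled on 49 Affymetrix arrays, 1 per sample, in male B6 mice of 6 weeks. All animals from day 1 on had received serum of K/BxN mice, which carries arthritis-inducing autoantibodies. The labels give time as the day after the first serum injection, and day 0 is the starting point. Ankle was sampled on day 0 (4 arrays), day 1 (2), day 3 (3), day 7 (4), day 12 (3) and day 18 (3), as tissue of mixed cells. Fluid was sampled on day 3 (3), day 7 (4), day 12 (3) and day 18 (3), and fluid of untreated mice was not analysed here. Blood leukocytes were sampled on days 0, 1, 3, 7 and 12 (3 each) and day 18 (2). The labels name no altered allele in the recipients. The labels call the blood samples biological replicates and say nothing of the others, and p-values then cover no more than the spread among these samples, which can be technical.

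Preparations differed between tissues and within fluid, and tissue and preparation cannot be told apart in any comparison between tissues. In fluid, replicate 1 of day 3 and of day 7 came from washing dissected ankles (called washed out from here on), most others from collection during dissection. Fluid day 7 replicate 4 and day 18 replicate 3 have yet another description. In blood, replicate 3 of day 3 has a description that differs from the others. Array medians lay between 57.7 and 64.1 on the linear scale. The 95th percentile of 34 negative control probe sets, 6.85 on the log2 scale, served as the level of background. A fold is given only where both group means exceed it, and a difference from a mean below it is no measure of fold. Albumin transcripts of liver stood out in ankle replicate 1 of days 0, 1, 7 and 12 (log2 8.95, 6.39, 8.41 and 10.65). They were at most 5.19 in the other 15 ankle arrays. Blood had lymphocyte transcripts, with group means of 11.06 to 11.44 for Ms4a1 of B cells and 9.43 to 9.87 for Cd8b1 of T cells. It also had the neutrophil marker S100a8 (11.28 to 12.22) and the macrophage marker Mpeg1 (9.70 to 10.11). Fluid and ankle had macrophage transcripts as well, described further on.

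Macrophages exposed to interferon gamma and microbial products enter the classical state, in which inducible nitric oxide synthase (Nos2) turns arginine into nitric oxide and Acod1 makes itaconate from a citric acid cycle intermediate. Interleukin 4 and interleukin 13 drive the alternative state, in which arginase 1 (Arg1) splits the same arginine into ornithine and urea. The chitinase-like protein Ym1 (Chil3) and the mannose receptor CD206 (Mrc1) are the other textbook markers of that state in mice. Msr1 and Marco are class A scavenger receptors, and CD14 passes lipopolysaccharide to the receptor TLR4. Several of these genes are also used by other cells: Arg1 is abundant in liver, Chil3 is made by neutrophils and their precursors, Mrc1 is also found on lymphatic and liver endothelium, and CD14 occurs on monocytes and neutrophils.

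Before the values, 3 upstream sequences are shown, of members whose patterns over the tissues differ and for which RefSeq (GRCm38.p6) gave an entry. Each is the 250 bases before the annotated start of the gene, 5′ to 3′ on the gene's strand, with matches to the searched motifs in capitals. Acod1, at chr14:103046762-103047011 on the plus strand, was high in fluid and under background in ankle and blood. Chil3, at chr3:106167565-106167814 on the minus strand, was above background in fluid and blood and in ankle on day 18 alone, and fell in fluid. Mrc1, at chr2:14229164-14229413 on the plus strand, read higher in ankle and fluid than in blood.
Acod1: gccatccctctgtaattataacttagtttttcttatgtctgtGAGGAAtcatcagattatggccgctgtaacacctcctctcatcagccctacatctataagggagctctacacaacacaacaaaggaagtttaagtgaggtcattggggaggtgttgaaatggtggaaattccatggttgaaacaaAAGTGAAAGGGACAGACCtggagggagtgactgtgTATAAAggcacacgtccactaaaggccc
Chil3: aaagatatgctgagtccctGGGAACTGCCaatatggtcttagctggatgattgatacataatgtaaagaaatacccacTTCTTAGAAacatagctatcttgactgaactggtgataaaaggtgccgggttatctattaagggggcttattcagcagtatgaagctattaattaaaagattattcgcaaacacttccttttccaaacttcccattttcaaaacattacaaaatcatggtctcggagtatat
Mrc1: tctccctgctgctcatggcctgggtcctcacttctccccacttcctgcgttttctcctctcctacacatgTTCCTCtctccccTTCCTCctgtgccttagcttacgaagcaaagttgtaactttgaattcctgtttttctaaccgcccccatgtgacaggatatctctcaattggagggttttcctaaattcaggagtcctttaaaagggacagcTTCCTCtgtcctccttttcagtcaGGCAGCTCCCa

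The motifs searched on both strands were TATAAA, AANNGAAA (interferon regulatory factor core), TTCNNNGAA (gamma-activated site), TTGCNNAA (C/EBP type), GAGGAA (PU.1 core), and the longer NF-kB type (GGG, any 5 letters, CC) and STAT6 type (TTC, any 4 letters, GAA). Acod1 had TATAAA at bases -28 to -23, counted back from the start site. Its AANNGAAA match lay at -63 to -56 and was followed at once by an NF-kB type match at -55 to -46. A GAGGAA match stood further up, at -208 to -203. Chil3 had a TTCNNNGAA match at -172 to -164 and an NF-kB type match at -231 to -222. Mrc1 had 3 GAGGAA matches on the opposite strand, starting at -180, -167 and -35, and an NF-kB type match on that strand at -11 to -2. Marco, the fourth member with an entry, held the NF-kB type at -204 to -195 and, overlapping on both strands, at -30 to -20, and GAGGAA at -146 to -141. The STAT6 type and TTGCNNAA were found in 0 of the 4 windows.

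Such matches are common in windows of this length. Among 32851 RefSeq windows, the NF-kB type occurred in 45.8%, GAGGAA in 23.3%, AANNGAAA in 21.3%, TATAAA in 12.4%, TTGCNNAA in 9.56%, TTCNNNGAA in 7.02% and the STAT6 type in 5.85%. They describe the letters of these windows and were not tested as sites. Arg1, Nos2, Msr1 and Cd14 have no sequence shown here.

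Across the tissues the 8 genes fell into distinct patterns. Fluid cells had 6, 5, 6 and 5 of the 8 above background on days 3, 7, 12 and 18. Blood had 2 at each day, Chil3 and Cd14. Ankle had 1 before serum, Cd14, and 3 or 4 from day 1 on. Nos2 and Marco were above background in 0 of 16 groups. These are bulk samples, in which fewer cells of a type and less RNA per cell cannot be told apart.

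**Figure D1:**
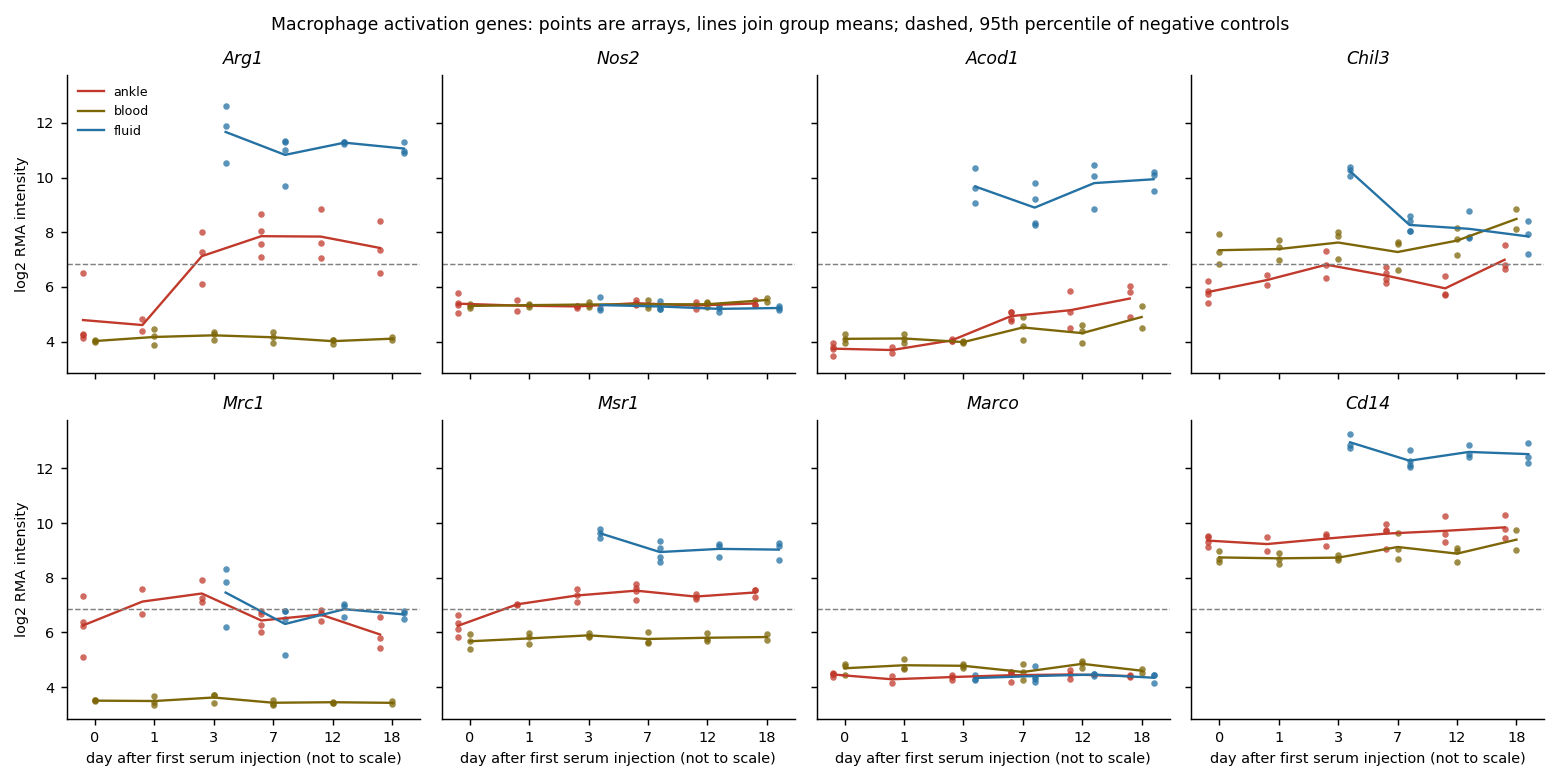
Log2 RMA intensity of the main probe set of each gene by tissue and day, where points are arrays and lines join the group means. Fluid lies far above ankle and blood for Arg1, Acod1, Msr1 and Cd14, while Nos2 and Marco stay under the dashed line at 6.85, the 95th percentile of the negative controls, in all 49 arrays.

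Counted by limma at an adjusted p of 0.05, 1 of the 8 was higher in ankle on day 3 than on day 0, where 0.182% of all genes were higher and 0.0485% lower. On day 7 there were 3 (3.09% of all genes higher, 3.64% lower), on day 12 again 3 (1.87% and 1.37%) and on day 18 there were 4 (1.13% and 0.885%). In these 4 comparisons 0 of the 8 were lower. The median difference of the 8 was 0.65, 0.43, 0.38 and 0.83 at these days, against -0.01, 0.00, -0.03 and 0.00 over all genes. On day 1, 0 of the 8 passed (0% of all genes), and 1 of the 8 (Msr1) and 150 of all 8251 genes had an unadjusted p under 0.05. Between day 18 and day 7, 0 of the 8 passed either way (0.0606% of all genes higher, 0% lower), with 2 of the 8 at an unadjusted p under 0.05.

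In blood 0 of the 8 passed limma's test at any day. The same held for all 8251 genes, of which 589, 1702, 168, 513 and 1693 had an unadjusted p under 0.05 on days 1, 3, 7, 12 and 18. Of the 8 members, 3 did on day 18 (Chil3, Acod1 and Cd14) and 0 on the earlier days. Among fluid days 1 of the 8 was lower than on day 3 at each of day 7 (0.388% of all genes), day 12 (0.279%) and day 18 (0.909%), and 0 were higher (2.17%, 2.42% and 2.28% of all genes).

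Between tissues a large share of all genes differed. Fluid exceeded blood for 6 of the 8 (24.8% of all genes) and was below it for 2 (34%). It exceeded ankle for 5 (18.7%) and was below it for 0 (19.4%). Before serum, ankle exceeded blood for 3 (22.4%) and was below it for 1 (19.8%). The ankle response exceeded the blood response, as an interaction over days 3 to 18, for 2 of the 8 (2.01%) and was below it for 0 (2.11%).

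Arginine is the substrate of enzymes of both states, and their transcripts were read at different levels. Arg1 rose in ankle and was very bright in fluid cells, while Nos2 was at background throughout, where a change may go unseen. In ankle before serum Arg1 read 6.49, 4.26, 4.13 and 4.26 on the log2 scale, and on day 1 it read 4.84 and 4.37. It then read 7.99, 7.28 and 6.11 on day 3 and 8.68, 8.06, 7.1 and 7.59 on day 7. On day 12 the arrays read 8.86, 7.04 and 7.62, and on day 18 they read 6.51, 7.34 and 8.41. All arrays of days 7, 12 and 18 lay above all arrays of day 0, while the lowest array of day 3 lay under the highest of day 0.

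Arg1 differed from day 0 by -0.18 ± 0.68 (SE) on day 1 (adjusted p = 0.999) and by 2.34 ± 0.60 on day 3 (adjusted p = 0.131). It rose by 3.07 ± 0.56 on day 7 (adjusted p = 0.00203), by 3.05 ± 0.60 on day 12 (adjusted p = 0.00688) and by 2.64 ± 0.60 on day 18 (adjusted p = 0.0262). The day 0 mean of 4.79 was under background, and the day 7 mean was 2.01 times the background level. From day 7 to day 18 the difference was -0.43 ± 0.60 (adjusted p = 0.999).

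The arrays with liver transcripts bear on Arg1, since liver uses it in the urea cycle. At each of days 0, 1, 7 and 12 the ankle array with liver transcripts was the highest of its day for Arg1. The summed linear intensity of 14 liver markers, led by Apoa2, was 2177, 740, 1488 and 5493 in these 4 arrays and between 383 and 531 in the other 15. Without them Arg1 rose by 2.91 on day 3 (adjusted p = 0.00986), by 3.36 on day 7 (0.000486), by 3.11 on day 12 (0.00337) and by 3.21 on day 18 (0.00133). The rises on days 7 and 12 thus passed without these arrays too, and so did the day 3 difference. This fit also leaves out the highest array of day 0, where the mean is under background. The part of liver transcripts in the Arg1 values was not tested beyond this fit. The day 3 difference also passed without day 0 replicate 1 alone (adjusted p = 0.0234), with array weights (0.00172) and with all 49 arrays in 1 fit (0.007). It missed the threshold in the main fit and with the beta-actin covariate described below, so this call depends on the fit.

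**Figure D2:**
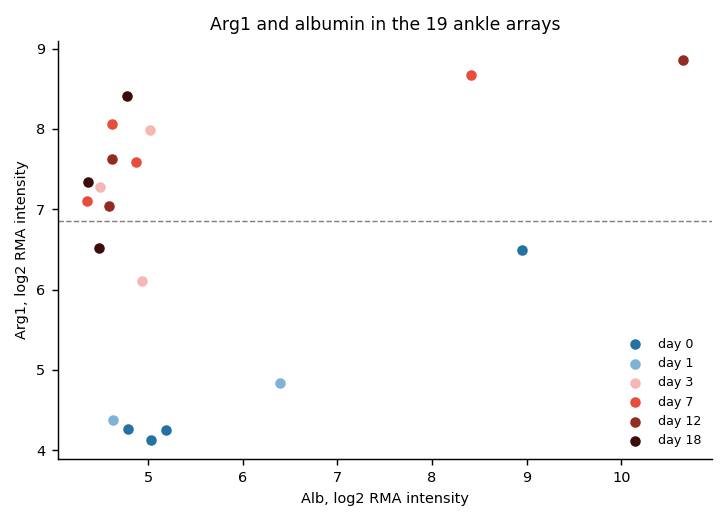
Log2 intensity of Arg1 against that of albumin (Alb) in the 19 ankle arrays, coloured by day, with the background level dashed. The 4 arrays at the right carry liver transcripts, and the 10 arrays of days 7 to 18 lie above the day 0 arrays both with and without them.

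A measure of RNA integrity also moved with the ankle days. The beta-actin controls give the ratio of 3′ over 5′ signal, which is higher in shorter RNA, and its log2 value lay between 2.73 and 3.5 on day 0 and between 3.15 and 4.25 later. With this ratio as a covariate Arg1 rose by 2.65 on day 7 (adjusted p = 0.0390), while its differences of 2.51 on day 12 (0.167) and 2.32 on day 18 (0.116) missed the threshold. The part of RNA integrity in these values was not tested beyond this fit. On day 18 Arg1 missed the threshold when replicate 2, 3 or 4 of day 0 was left out (adjusted p = 0.0526, 0.0903 and 0.0802), and when replicate 2 or 3 of day 18 was (0.0890 and 0.207). In fluid the log2 beta-actin ratio lay between 1.59 and 2.39 on day 3 and between 2.69 and 2.90 on day 7. It lay between 1.88 and 3.02 on day 12 and between 2.02 and 3.61 on day 18. The ratio was not fitted as a covariate among fluid days, so its part in differences between them was not tested.

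In fluid cells Arg1 read 10.53, 11.87 and 12.60 on day 3 and 9.68, 11.30, 11.32 and 11.03 on day 7. It read 11.21, 11.31 and 11.31 on day 12 and 10.96, 10.91 and 11.32 on day 18. In blood its 17 arrays lay between 3.86 and 4.44 with a median of 4.06. Every fluid array was thus above every ankle and blood array.

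Over the matched days Arg1 in fluid exceeded blood by 7.08 ± 0.18 (adjusted p = 5.48e-22), from a blood mean under background, and its fluid mean was 20.5 times the background level. It exceeded ankle by 3.65 ± 0.30, or 12.5-fold (adjusted p = 3.97e-11). The ankle response exceeded the blood response by 2.67 ± 0.54 (adjusted p = 0.00351).

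The lowest Arg1 array of fluid day 3 and of day 7 was the washed-out one, at 10.53 against 11.87 to 12.60 and at 9.68 against 11.03 to 11.32. In the deposited values Arg1 differed from day 3 by -0.84 ± 0.43 on day 7 (adjusted p = 0.554), by -0.39 ± 0.46 on day 12 (0.751) and by -0.61 ± 0.46 on day 18 (0.616). Without the washed-out samples, a choice made after the data were seen, the differences of Arg1 were -1.02 (adjusted p = 0.0603), -0.96 (0.0726) and -1.17 (0.0205). The day 18 difference thus passed only where these samples, or all samples not taken during dissection (adjusted p = 0.0316), were left out or where arrays were weighted (0.00898).

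Nos2 lay between 5.05 and 5.77 in all 49 arrays, under background in each of them. In fluid it read 5.63, 5.14 and 5.24 on day 3 and between 5.07 and 5.47 later. Its largest difference from day 0 in ankle was -0.10 ± 0.14, on day 3 (adjusted p = 0.975). Fluid was below blood by 0.14 ± 0.06 (-0.14, adjusted p = 0.0474) with overlapping arrays, and this call was lost under quantile normalization anew (0.129), in the fit of all 49 arrays (0.0654) and in 21 of the fits that leave out 1 array each. A level under background on this probe set says nothing of how much enzyme was made.

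Of 21 other measured genes of arginine metabolism, 1 rose and 1 fell in ankle on day 7 (3.09% of all genes higher, 3.64% lower), and 1 rose at each of days 12 (1.87%) and 18 (1.13%). The riser was Arg2, the mitochondrial arginase, with 0.59, 0.65 and 0.78 at these days, under background in every ankle group. The gene that fell on day 7 was Ddah2 (-1.16 ± 0.25, adjusted p = 0.00721), which degrades inhibitors of nitric oxide synthase. Between fluid and ankle 5 were higher and 4 lower (18.7% and 19.4% of all genes). Arg2 was higher by 2.77 ± 0.12 (adjusted p = 1.32e-16). So were Sat1 (1.25), the acetyltransferase of polyamine breakdown, and Gch1 (1.23), which starts the synthesis of the nitric oxide synthase cofactor tetrahydrobiopterin and was under background in both tissues. Among fluid days 0 of the 21 passed limma's test, with 2, 1 and 4 at an unadjusted p under 0.05 on days 7, 12 and 18.

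Acod1, the itaconate enzyme of the classical state, was bright in fluid and rose late in ankle from levels under background. Fluid arrays read 9.07, 9.60 and 10.35 on day 3, 8.25, 9.80, 9.22 and 8.34 on day 7, 10.45, 8.86 and 10.07 on day 12 and 9.52, 10.09 and 10.21 on day 18. In blood the 17 arrays lay between 3.94 and 5.29, with the highest on day 18. In ankle it read 3.95, 3.48, 3.74 and 3.80 on day 0 and 4.01 to 4.09 on day 3. It reached 4.75, 5.08, 4.82 and 5.07 on day 7, 5.85, 4.50 and 5.10 on day 12 and 4.89, 5.81 and 6.02 on day 18. Fluid did not overlap with the other tissues, and ankle from day 3 on did not overlap with day 0, although all ankle arrays stayed under background. The washed-out fluid arrays were the lowest of days 3 and 7 for Acod1 too.

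Acod1 in fluid exceeded blood by 5.15 ± 0.19 (adjusted p = 1.84e-18) and ankle by 4.65 ± 0.19 (adjusted p = 3.44e-17), and its fluid mean was 6.63 times the background level. In ankle Acod1 differed by 0.30 ± 0.26 on day 3 (adjusted p = 0.905) and rose by 1.19 ± 0.24 on day 7 (0.00480), by 1.41 ± 0.26 on day 12 (0.00447) and by 1.83 ± 0.26 on day 18 (0.000447). These 3 calls held without each ankle array in turn, with adjusted p-values up to 0.0213. The ankle response of Acod1 exceeded that of blood by 0.86 ± 0.28, which missed the threshold (adjusted p = 0.0843). It passed with array weights (0.0208), with the beta-actin covariate (0.0418), without ankle day 12 replicate 2 (0.0369) and without ankle day 18 replicate 1 (0.0322). Blood on day 18 differed from day 0 by 0.80 ± 0.24 (adjusted p = 0.220). Between fluid days Acod1 differed from day 3 by -0.77 ± 0.43, 0.12 ± 0.46 and 0.27 ± 0.46, with adjusted p of 0.599, 0.928 and 0.862.

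The other Acod1 probe set lay under background in all 49 arrays, between 3.05 and 5.07. It too was higher in fluid than in blood (1.15, adjusted p = 1.59e-12) and ankle (1.07), but in ankle it differed by 0.00 on day 7 and by 0.24 on day 18 (adjusted p = 0.503). The ankle rise therefore rests on 1 of the 2 probe sets. Genes around itaconate, such as those of succinate dehydrogenase, which itaconate inhibits, passed limma's test in 0 of 8 cases in ankle on each of days 3, 7, 12 and 18, with 0 at an unadjusted p under 0.05. Fluid exceeded blood for 6 of the 8, among them Idh1 (1.84) and Sdhc (1.00).

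Chil3, which encodes Ym1, was brightest in fluid on day 3 and lower there at each later day. Fluid read 10.27, 10.04 and 10.38 on day 3, then 8.03, 8.60, 8.04 and 8.39 on day 7, 7.77, 7.83 and 8.77 on day 12 and 7.19, 8.41 and 7.93 on day 18. Day 3 did not overlap with any later day. Chil3 fell by 1.96 ± 0.29 to day 7 (3.90-fold, adjusted p = 0.00102), by 2.11 ± 0.31 to day 12 (4.31-fold, 0.000909) and by 2.39 ± 0.31 to day 18 (5.23-fold, 0.000281). All 3 falls held without each fluid array in turn. With fluid taken during dissection alone, which leaves 2 arrays each on days 3, 7 and 18, the day 7 fall was of the same size (-1.89) but missed the threshold (adjusted p = 0.0840).

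For Chil3 the washed-out sample lay between the other 2 arrays on day 3, at 10.27, and was the lowest on day 7, at 8.03 against 8.04 to 8.60. Of 16 measured neutrophil markers 0 passed as lower in fluid at any later day, while Mmp9 rose on days 7 (1.54) and 12 (1.89), and the summed linear intensity was 13101 to 16940 on day 3 and 16830 to 19539 on day 18. The granule gene Ngp stood at 6.53, 6.67, 6.28 and 6.54 on days 3 to 18, under background at each, where a change may go unseen. Of the macrophage markers 0 of 16 passed on each day, with 2, 0 and 3 at an unadjusted p under 0.05 on days 7, 12 and 18, and their sums were 10286 to 17615 on day 3 and 12814 to 17175 on day 18. The part of cell types and of RNA integrity in the fall of Chil3 was not tested, and that of preparation not beyond the fits above.

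**Figure D3:**
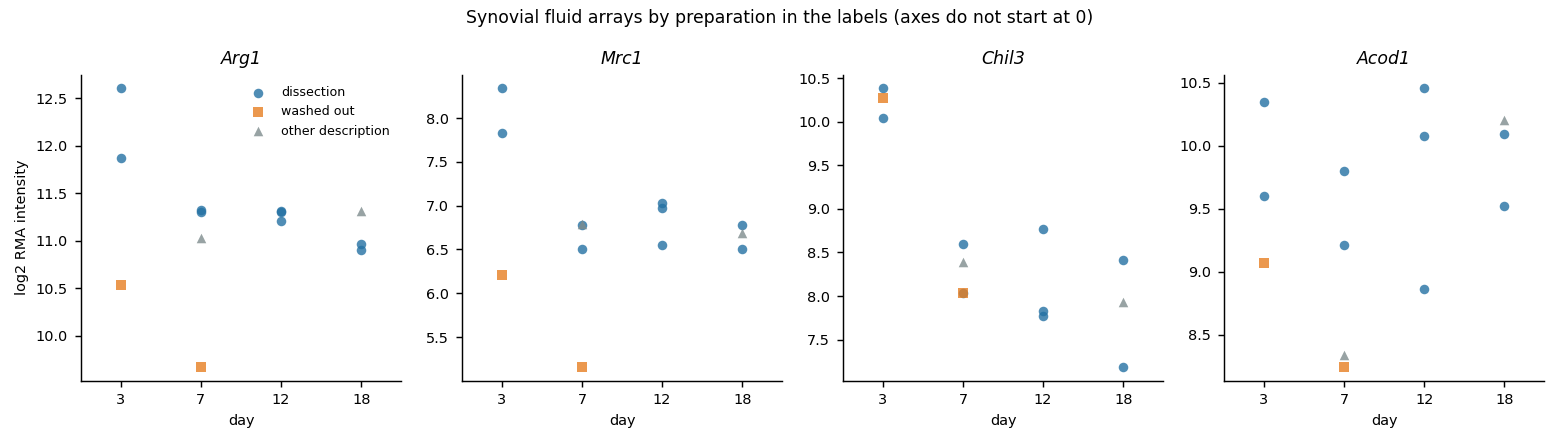
Log2 intensity of Arg1, Mrc1, Chil3 and Acod1 in the 13 fluid arrays by day, with symbols for the preparation given in the labels. The washed-out arrays (squares) are the lowest of days 3 and 7 for Arg1, Mrc1 and Acod1, while for Chil3 the 3 arrays of day 3 lie at 10.04 or above.

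In blood Chil3 was well measured, between 6.62 and 8.84 with a median of 7.64. Its highest arrays were those of day 18, at 8.13 and 8.84, against 7.94, 7.26 and 6.83 on day 0 (1.15 ± 0.40, 2.21-fold, adjusted p = 0.220). Fluid exceeded blood by 0.85 ± 0.18 on average over the days (1.80-fold, adjusted p = 0.000256), with arrays that overlapped. This average joins a day 3 gap of 10.23 against 7.62 with a day 18 mean in fluid of 7.84 that lay under the 8.49 of blood.

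In ankle Chil3 read 6.22, 5.42, 5.86 and 5.73 before serum, lower than in blood by 1.53 ± 0.32 (-1.53, adjusted p = 0.000187). It read 7.33, 6.79 and 6.32 on day 3 and 6.28, 6.15, 6.50 and 6.74 on day 7. On day 12 the arrays read 5.72, 5.73 and 6.38, and on day 18 they read 6.79, 6.65 and 7.54. Days 3 and 18 did not overlap with day 0, and days 7 and 12 did. The differences of Chil3 were 1.00 ± 0.26 on day 3 (adjusted p = 0.131, and 0.0101 with array weights), 0.61 ± 0.24 on day 7 (0.168) and 0.14 ± 0.26 on day 12 (0.871). By day 18 Chil3 had risen by 1.18 ± 0.26 (adjusted p = 0.0239), from a day 0 mean of 5.81, under background, to 6.99, just above it.

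The day 18 rise of Chil3 in ankle was lost without day 0 replicate 3 (adjusted p = 0.0579) or replicate 4 (0.0601), without day 18 replicate 1 (0.0547) or replicate 3 (0.198), and with the beta-actin covariate (0.0972). Some genes of neutrophil precursors were higher at the same day. Camp rose by 1.53 ± 0.24 (adjusted p = 0.00141), Ngp by 1.58 ± 0.30 (0.00793) and Ltf by 0.88 ± 0.17 (0.00692), all 3 encoding granule proteins. Ngp and Ltf were under background on day 0 (6.58 and 6.23). Mpo, another granule gene of precursors, stood at 4.94 on day 0 and 5.06 on day 18, both under background. Of the 16 neutrophil markers 7 were higher on day 18, with sums of 4195 to 5580 against 1227 to 1446 before serum. The part of these cells in the Chil3 value was not tested. Chil3 has a near-identical neighbour, Chil4, and whether its probe set separates them was not tested.

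Mrc1, the mannose receptor, was the only one of the 3 alternative markers that passed as higher in ankle than in blood before serum (Arg1 differed by 0.77, adjusted p = 0.208), although its ankle mean of 6.26 was under background. It read 5.08, 7.35, 6.37 and 6.22 on day 0, whereas the 17 blood arrays lay between 3.35 and 3.72, a difference of 2.75 ± 0.31 (adjusted p = 1.63e-08). Ankle then read 6.67 and 7.59 on day 1, 7.1, 7.25 and 7.92 on day 3, 6.28, 6.66, 6.77 and 6.03 on day 7, 6.41, 6.83 and 6.72 on day 12 and 6.57, 5.78 and 5.42 on day 18. Every day overlapped with day 0.

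Mrc1 differed from day 0 by 0.87 ± 0.45 on day 1 (adjusted p = 0.999), by 1.17 ± 0.40 on day 3 (0.345) and by 0.18 ± 0.37, 0.40 ± 0.40 and -0.33 ± 0.40 on days 7, 12 and 18 (0.870, 0.712 and 0.848). The day 3 difference passed with array weights (1.14, adjusted p = 0.0208). In ankle the spread on day 0, an SD of 0.93 over 4 arrays, was the widest of its groups. Day 0 replicate 1, with liver transcripts, was the lowest at 5.08.

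In fluid Mrc1 read 6.21, 7.83 and 8.34 on day 3, 5.16, 6.78, 6.51 and 6.79 on day 7, 6.56, 6.97 and 7.03 on day 12 and 6.78, 6.51 and 6.69 on day 18. The washed-out arrays were again the lowest of their days. Fluid exceeded blood by 3.34 ± 0.18 (adjusted p = 7.22e-15), with means over the days of 6.82 and 3.48, both under background. The difference between fluid and ankle was 0.21 ± 0.23 (adjusted p = 0.512) and arrays overlapped, so that Mrc1, unlike Arg1 and Acod1, was not shown to differ between them.

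From day 3 the level of Mrc1 differed by -1.15 ± 0.43, -0.61 ± 0.46 and -0.80 ± 0.46 on days 7, 12 and 18 (adjusted p = 0.278, 0.614 and 0.458). The mean was 7.46 on day 3 and 6.85, at the level of background, on day 12. On days 7 and 18 it was under background (6.31 and 6.66). Without the washed-out samples Mrc1 was lower than on day 3 by 1.39 (-1.39, adjusted p = 0.00178), 1.23 (-1.23, 0.00315) and 1.42 (-1.42, 0.00112). With all samples not taken during dissection left out the adjusted p-values were 0.0155, 0.0148 and 0.0119. With array weights they were 0.00775, 0.0144 and 0.000584. The fall of Mrc1 in fluid thus passed at all 3 days only where the washed-out samples were left out or arrays were weighted, and without them day 3 has 2 arrays.

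**Figure D4:**
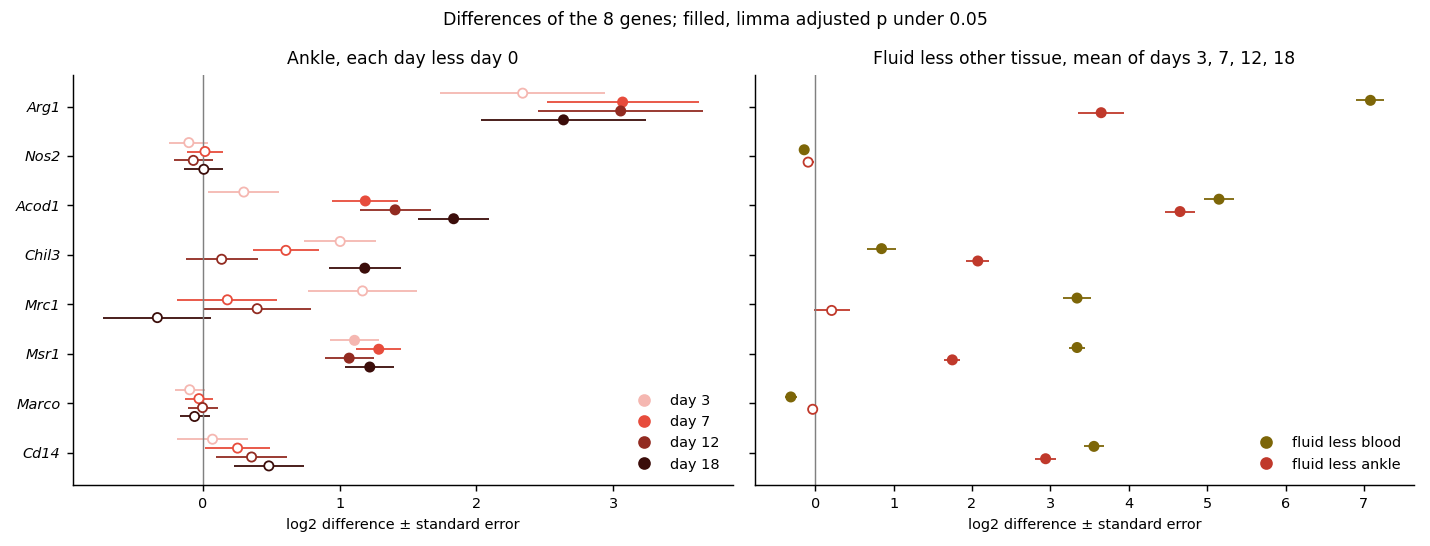
Left, log2 differences of each ankle day from day 0, and right, of fluid from blood and from ankle over days 3, 7, 12 and 18, each with its standard error from limma. Filled symbols passed an adjusted p of 0.05: Msr1 at all 4 ankle days shown, Arg1 and Acod1 from day 7, and Chil3 on day 18.

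Among the surface receptors Msr1, scavenger receptor A, rose in ankle by day 3 and was above its starting level at each later day. It read 6.12, 6.64, 5.84 and 6.36 on day 0 and 7.00 and 7.05 on day 1. It read 7.59, 7.11 and 7.36 on day 3, 7.63, 7.50, 7.79 and 7.19 on day 7, 7.23, 7.31 and 7.4 on day 12 and 7.3, 7.54 and 7.55 on day 18. Every array after day 0 lay above every array of day 0, on day 1 too, where the difference of 0.79 ± 0.20 missed the threshold (adjusted p = 0.999).

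Msr1 rose by 1.11 ± 0.18 on day 3 (adjusted p = 0.00866), by 1.29 ± 0.17 on day 7 (0.000102), by 1.07 ± 0.18 on day 12 (0.00182) and by 1.22 ± 0.18 on day 18 (0.000662). On day 3 the threshold was missed when replicate 1 of that day was left out (adjusted p = 0.114) and with the beta-actin covariate (0.0763). The rises of days 7, 12 and 18 passed in these fits and without each ankle array in turn. In blood Msr1 lay between 5.40 and 6.01, and the ankle response exceeded that of blood by 1.02 ± 0.19 (adjusted p = 0.00159). Before serum, ankle exceeded blood by 0.57 ± 0.17 (adjusted p = 0.00662), with overlapping arrays and both means under background, and without blood day 0 replicate 2 this call was lost (0.0709).

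Fluid arrays of Msr1 read 9.46, 9.64 and 9.77 on day 3, 8.77, 9.35, 9.07 and 8.57 on day 7, 9.24, 8.76 and 9.17 on day 12 and 8.66, 9.15 and 9.28 on day 18. They lay above all ankle and blood arrays, and the 3 of day 3 above all later ones. Fluid exceeded ankle by 1.75 ± 0.10 (3.36-fold, adjusted p = 4.60e-14) and blood by 3.34 ± 0.10 (2.04e-20). From day 3 the differences were -0.68 ± 0.22, -0.57 ± 0.24 and -0.59 ± 0.24, and none passed (adjusted p = 0.179, 0.335 and 0.237). Msr1 passed on day 7 in the fit of all 49 arrays (0.0209), and on days 12 and 18 with array weights (0.0316 and 0.0107).

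The other Msr1 probe set was under background in all arrays, between 3.72 and 5.25. It was also higher in fluid than in blood (0.89) and ankle (0.67), but its ankle differences from day 0 lay between -0.08 and 0.13 with none past the test. As for Acod1, the ankle rise was seen on 1 probe set. The same held for the excess of the ankle response over that of blood, which was 0.02 on this other probe set (adjusted p = 0.939).

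Cd14 was above background in all 16 groups. In ankle it lay between 8.96 and 10.31, in blood between 8.52 and 9.76 and in fluid between 12.04 and 13.27, so that fluid stood apart and ankle and blood overlapped. Fluid read 12.86, 12.73 and 13.27 on day 3, 12.04, 12.67, 12.28 and 12.14 on day 7, 12.86, 12.40 and 12.54 on day 12 and 12.21, 12.43 and 12.94 on day 18. Cd14 in fluid exceeded ankle by 2.94 ± 0.13 (7.67-fold, adjusted p = 1.71e-16) and blood by 3.56 ± 0.12 (11.8-fold, 6.25e-19).

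In ankle Cd14 read 9.12, 9.49, 9.32 and 9.52 on day 0 and 9.45, 9.77 and 10.31 on day 18, which overlapped. The differences from day 0 were 0.07, 0.25, 0.36 and 0.48 ± 0.26 on days 3, 7, 12 and 18, and none passed (adjusted p from 0.510 to 0.988). The ankle response less the blood response was 0.00 ± 0.28. Before serum, ankle exceeded blood by 0.62 ± 0.25 (1.53-fold, adjusted p = 0.0442), a call lost without ankle day 0 replicate 2 (0.0789), replicate 3 (0.0641) or replicate 4 (0.0979) and without blood day 0 replicate 2 (0.113) or replicate 3 (0.148).

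Marco, the scavenger receptor of marginal zone and alveolar macrophages, lay between 4.14 and 5.03 in all arrays, close to the median of the negative controls (4.40). Fluid differed from blood by -0.31 ± 0.08 (adjusted p = 0.00123), a difference between levels that are both at background.

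Markers of macrophages and of neutrophils were set beside these levels, and both were bright in fluid. Fluid exceeded ankle for 14 of 16 measured macrophage markers (18.7% of all genes), among them Mpeg1 (2.46), Cd68 (2.53), Fcgr1 (2.25) and Adgre1 (1.76), with 0 lower (19.4%). The summed linear intensity of the list was 10286 to 17814 in fluid, 3878 to 6154 in ankle and 2464 to 5478 in blood. Neutrophil markers moved in the same direction, 9 higher and 2 lower of 16, and Camp and Ngp were the lower ones. S100a8 stood at 12.07 to 12.41 in fluid, 6.95 to 10.04 in ankle and 11.28 to 12.22 in blood. The summed linear intensity of the neutrophil list was 12174 to 22456 in fluid, 1227 to 5580 in ankle and 5671 to 16782 in blood. The part of cell numbers in the fluid levels was not tested.

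In ankle over time the 2 marker lists differed in their counts. Of the macrophage markers 1 rose on day 3 (Ccr2, 1.53), 3 on day 7 (Mpeg1 1.85, Ccr2 1.17 and Fcgr1 0.65) and Mpeg1 alone on days 12 (2.08) and 18 (2.27), with 0 lower at any day. Ccr2 and Fcgr1 were under background in every ankle group. The other markers lay on both sides of day 0. Cd68 stood at 8.01 on day 0 and 8.03 on day 18, whereas Csf1r stood at 9.50 and 8.76 (adjusted p = 0.242) and C1qb at 9.57 and 9.24 (0.828). Adgre1 stood at 6.10 and 6.18 and was under background in every ankle group, where a change may go unseen. On day 18, 5 of the 16 differed downwards, 1 of them (Csf1r) at an unadjusted p under 0.05, and the sums of the list at each later day overlapped with those of day 0. Of the neutrophil markers 1, 4, 4 and 7 rose on days 3, 7, 12 and 18, with 0 lower, led by Mmp9, Clec4d, S100a8 and S100a9. The rises of Arg1, Acod1 and Msr1 in ankle thus stood beside a rise of neutrophil genes and of Mpeg1, and their part in those rises was not tested.

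Of 21 other measured genes of the classical program 0, 4, 3 and 2 rose in ankle on days 3, 7, 12 and 18 by limma (0.182%, 3.09%, 1.87% and 1.13% of all genes), with 0 lower, and on day 3 there were 4 at an unadjusted p under 0.05. The 4 that rose on day 7 were Il1b (1.63 ± 0.26, adjusted p = 0.000706), the formyl peptide receptor Fpr2 (0.85), the cytokine signalling inhibitor Socs3 (1.62) and Il6 (0.71). The ankle means of Fpr2 and Il6 were under background at every day, and that of Il1b was 5.10 on day 0 and 6.72 on day 7, also under it. The median of the list was 0.19 on day 7 against 0.00 over all genes. Fluid exceeded ankle for 11 and was lower for 2, led by Fpr2 (3.36), Il1b (3.66), the costimulator Cd86 (1.1) and Irf8 (1.24). Against blood, 10 were higher and 7 lower, the lower ones led by the chemokine Ccl5 (-4.66). Cd86 fell in fluid, from a mean of 7.14 to means under background, by 1.07 ± 0.18 from day 3 to day 7 (adjusted p = 0.00295), by 1.05 to day 12 and by 1.39 to day 18, the 1 classical gene past the test at each of these days.

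Of 17 measured genes of the alternative program, 1, 3, 2 and 2 rose in ankle on days 3, 7, 12 and 18 (0.182%, 3.09%, 1.87% and 1.13% of all genes). The monocyte attractant Ccl7 rose at all 4 days (2.60, 2.35, 1.87 and 1.17), from a mean of 4.03 to at most 6.64, under background throughout. Also higher were the interleukin 1 antagonist Il1rn from day 7 on (2.48, 2.64 and 2.68) and the interleukin 4 receptor chain Il4ra on day 7 (1.13). The transcription factor Irf4 was lower on day 7 (-0.56) and day 12 (-0.62), with ankle means under background at every day. The median of the list was 0.04 on day 7.

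In fluid 4 genes of this list were lower than on day 3 and 1 higher on day 7 (0.388% of all genes lower, 2.17% higher), again 4 and 1 on day 12 (0.279% and 2.42%), and 5 and 0 on day 18 (0.909% and 2.28%). Ccl7 fell by 2.08 ± 0.32 to day 7 (adjusted p = 0.00135), and the chemokine Ccl17 (-0.98), Irf4 (-0.72) and the nuclear receptor Pparg (-1.13) were lower too. Irf4 and Pparg were under background at every fluid day, and Ccl17 went from 6.86, at the level of background, to 5.88. Socs2 was higher (0.91 on day 7 and 1.17 on day 12). Il4ra was lower on day 18 (-1.40). Between fluid and ankle 7 were higher and 2 lower, led by Il1rn (4.22), the transcription factor Egr2 (1.1), Ccl7 (0.95) and Stat6 (0.68), and Socs2 (-0.52) and Irf4 (-0.24) were the lower ones. The median difference of the list from day 3 was -0.58, -0.28 and -0.45, against -0.02, -0.06 and -0.01 over all genes.

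Genes of lipopolysaccharide sensing and other scavenger receptors gave 0 calls of 10 by limma in ankle on days 3, 7 and 12, with 0, 4 and 1 at an unadjusted p under 0.05, and 1 on day 18 (Cd5l, 0.51; 1.13% of all genes higher). In fluid Lbp, the carrier protein that hands lipopolysaccharide to CD14, was higher on day 12 (1.17 ± 0.17, adjusted p = 0.00085) and day 18 (2.07 ± 0.17, 7.98e-06) than on day 3. Cd5l was higher on day 18 (1.12) and the scavenger receptor Cd36 lower on day 7 (-0.86), both under background in every group. Fluid exceeded blood for 8 of the 10 and ankle for 7, with Cd68, the endothelial and macrophage receptor Stab1 and the oxidised lipoprotein receptor Olr1, under background in every group, among them. Lbp itself was 2.44 lower in fluid than in ankle (-2.44 ± 0.12, adjusted p = 6.27e-16).

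The members' patterns over the 16 group means can be set side by side as correlations, which share arrays and rest largely on tissue. Arg1 and Msr1 had r = 0.98, Acod1 and Cd14 also 0.98, and Arg1 and Acod1 0.92, although textbooks put the last pair in opposite states. Mrc1 had r = 0.73 with Arg1 and 0.48 with Acod1. Chil3 had r = 0.43 with Arg1 and -0.08 with Mrc1.

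Among 4248 genes with a group mean above background, the 3 closest to Arg1 were Msr1 (0.98), Mdfic (0.98) and Cstb (0.97). Those of Acod1 were Gpr137b (0.99), Cd14 (0.98) and Il1rn (0.98), and those of Cd14 were Gpr137b (0.99), Basp1 (0.99) and C3ar1 (0.99). Msr1 was closest to Nek6 (0.99), Mdfic (0.98) and Arg1 (0.98), and Mrc1 to Tubb6 (0.99), Nagk (0.98) and Map7d1 (0.98). Chil3 had lower values, with Slfn2 (0.94), Trpv2 (0.94) and Fgr (0.93). For Nos2 (Pheta1 0.86, Top3a 0.85 and Pkig 0.84) and Marco (Hoxa4 0.95, Cpne6 0.94 and Isca1 0.94) the member's own values were all under background.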

How the data were processed

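The deposited file holds 1 intensity per probe set and array, on a linear scale, which the authors made with RMA, per the submitters' processing notes. No version of RMA is stated there. The intensities were log2 transformed here. Of 12488 probe sets, 10833 with 1 symbol gave 8251 genes, each led by its probe set of highest mean. limma 3.58.1 in R 4.3.3 (lmFit, eBayes with trend) fitted 1 mean per tissue and day, tissues apart. Contrasts of 2 tissues were fitted on their arrays together and averaged over days 3, 7, 12 and 18. P-values were two-sided and Benjamini-Hochberg adjusted over all genes, with a threshold of 0.05, and the procedure was tested on simulated data. The number of arrays limits the precision.

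The members and gene lists were chosen with earlier results of these data known. All members were named. For each, the 3 genes with the highest Pearson correlation over group means were named, and of other lists up to 4 genes with the smallest p past the threshold, those past it against the list's majority, and the brightest marker. Other genes named were chosen after their values were seen. Promoter windows are from RefSeq GRCm38.p6. For ankle, the labels name SDS and urea in one field and Trizol in another as the extraction, and 1 day 0 array (replicate 2) has a differing short name in its description.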

Additional observations from a re-analysis of the deposited data

Results flagged for a closer look

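Arg1 in ankle before serum had 1 array far from the others, replicate 1 at log2 6.49 against 4.13 to 4.26. This array carries liver transcripts (Alb 8.95). Marco in the same group had replicate 4 at 4.37 against 4.49 to 4.50, all under background. Together these were 2 of 30 sets of values examined (10 probe sets in each of 3 groups of 4 arrays), and chance marks about 1 in 20.

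Differences between tissues under the same contrast passed limma's test for Arg1 and Msr1, both under background in every blood group, where a change may go unseen. The ankle response exceeded the blood response by 2.67 for Arg1 (adjusted p = 0.00351) and by 1.02 for Msr1 (adjusted p = 0.00159), by the interaction in limma. On the other Msr1 probe set it was 0.02 (adjusted p = 0.939).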

How the results depend on the processing

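Of the alternatives run on the 8 genes in 18 comparisons, 3984 results kept their side of the threshold, 33 passed it anew, 47 missed it and 0 reversed. Many that kept their side had not passed in the main fit, as in all comparisons of blood days and in ankle on day 1. These counts are therefore no measure of how stable the results that passed are. Direction was compared only where the main or the alternative result passed, so a change of sign among results that passed in neither is not counted. Counts of members past the threshold that moved were these. With array weights, ankle day 3 against day 0 gave 4, blood day 3 against day 0 gave 1, blood day 18 against day 0 gave 3, and fluid day 7 against day 3 gave 2, day 12 gave 3 and day 18 gave 4. In the fit of all 49 arrays, ankle day 3 gave 2 and fluid day 7 gave 2. Without the arrays with liver transcripts ankle day 3 gave 2, and with the beta-actin covariate it gave 0 and ankle day 18 gave 2. With only fluid taken during dissection, fluid day 12 gave 2 and day 18 gave 3, and without the washed-out samples, added after the data were seen, fluid days 7, 12 and 18 gave 2, 2 and 3. Without the dimmest genes (1 in 3), fluid against blood over matched days gave 5 and the ankle response against blood response gave 1, since members left the test. Leaving out 1 array gave 0 to 2 for ankle day 3, 2 to 4 for ankle day 18, 1 to 2 for fluid day 7 and 2 to 4 for ankle against blood at day 0. The share of all genes that passed in each of these other fits is not given here, so the moved counts are no result about the members. The causes were not tested.

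The labels do not say that replicate numbers mark a shared animal, litter or batch, and not every same-numbered pair correlated above 0.1, so the numbers were not taken to pair the samples. Deviations of same-numbered samples correlated at medians of 0.20 in ankle, -0.06 in fluid and 0.19 in blood, against -0.11, -0.06 and -0.13 for other numbers, with lowest values of -0.18, -0.31 and -0.45, and 11 of 19, 6 of 12 and 11 of 17 samples correlated best with their own number. With the replicate block Nos2 between fluid and blood (-0.14, adjusted p = 0.0506) and Cd14 between ankle and blood at day 0 (0.57, adjusted p = 0.0741) missed the threshold, and the counts of members stayed within 1.5 times. Nos2, Marco and the other probe sets of Acod1 and Msr1 were under background, where a change may go unseen.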
